A study of Mus musculus with 2 samples.

Results

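The cells described here are the 438 Pax2 high cells of a vehicle-treated culture of mouse renal progenitors. Each of the 2854 vehicle cells was thinned at random, without replacement, to 18663 unique molecular identifiers (UMIs, each standing for 1 captured RNA molecule), and 453 cells with fewer UMIs were left out. Of the 2401 cells kept, those with 2 or more Pax2 UMIs were taken as Pax2 high (438 cells, 18.2%, 95% exact binomial interval 16.7 to 19.8%), and those with none as Pax2 negative (1231 cells, 51.3%). The 732 cells with 1 Pax2 UMI (30.5%) belong to neither set. Both sets were thus chosen by their measured Pax2 count. The whole series holds 5135 cells in 2 libraries, and no cell barcode occurs in both.

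Pax2 is a paired-box transcription factor needed for the nephric duct, the ureteric bud and the condensing nephron progenitors of the embryonic kidney. It is switched off in most mature nephron segments, while epithelial cells along Bowman's capsule, a proposed progenitor pool for podocytes, can keep it. Pax2 acts by recruiting chromatin-modifying partners to its target genes.

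The cells came from the kidney cortex of 2 healthy mice aged 9 weeks, of strain C57Bl/6, that carried Pax2.rtTA and TetO.Cre together with the reporter R26.mT/mG. In these mice a Pax2 promoter drives the transactivator that switches on Cre, and Cre turns the reporter from membrane tomato to membrane GFP. Glomeruli were grown for 5 days, the cells that grew out were sorted for GFP, starved for 16 h and then kept for 48 h in DMSO, the vehicle, or in 0.2 µM panobinostat, a histone deacetylase inhibitor. Each treatment is 1 library, and the mouse of each cell and the schedule of reporter induction are not given in the sources used here. A GFP cell has had an active Pax2 promoter at some time, which does not mean that it holds Pax2 RNA when captured.

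There are therefore no replicates, and no test was made. All intervals are exact 95% intervals that cover counting error alone, not the variation between cells, cultures or animals. Levels are counts per 1000000 UMIs (CPM) summed over a set of thinned cells, so that every cell weighs the same. The GFP reporter transcript stood at 7666 CPM in Pax2 high cells and 7765 CPM in Pax2 negative cells, so both sets carried the mark used in the sort. Depth before thinning was also close, with a median of 30135 UMIs in Pax2 high and 30272 UMIs in Pax2 negative cells, and mitochondrial RNA took a median of 5.13% and 5.05% of UMIs.

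Pax2 (chr19:44756045-44837871, plus strand, GRCm38) was a sparse transcript. The thinned count was 2 in 296 cells, 3 in 112 cells, 4 in 21 cells, 5 in 6 cells and 6 in 3 cells. Its mean was 0.746 UMIs per cell and its variance was 1.22 times the mean, where random sampling of 1 common level would give a ratio near 1. These counts chose the cells and are given as a description.

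**Figure D1:**
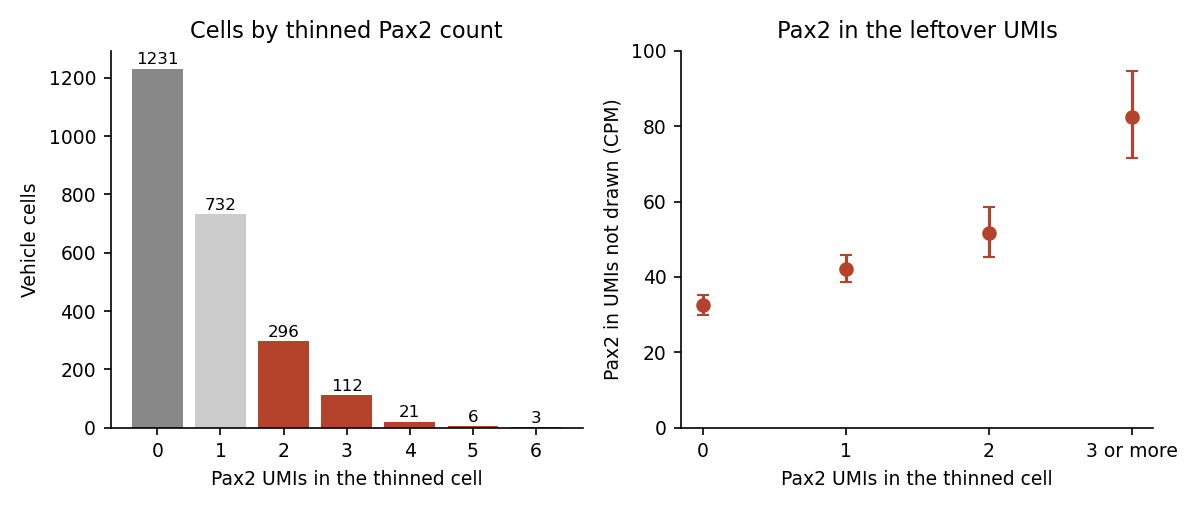
Left, number of vehicle cells (y axis) by Pax2 UMIs in the thinned cell (x axis), with Pax2 negative cells in dark grey and Pax2 high cells in red. Right, Pax2 in the UMIs that thinning did not draw (CPM, y axis) for the same cells, with exact Poisson 95% intervals. The level goes from 32.5 CPM at 0 UMIs to 82.4 CPM at 3 or more.

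The UMIs left over after thinning come from the same cells but took no part in the choice. In them, Pax2 stood at 32.5 CPM (29.9 to 35.1) in cells that had 0 thinned UMIs and at 42.1 CPM in cells that had 1. Just inside the threshold, cells with 2 thinned UMIs held 51.7 CPM, and cells with 3 or more held 82.4 CPM. Pax2 high cells as a whole held 62.2 CPM (56.5 to 68.3), which is 1.92-fold the level of the Pax2 negative cells (log2 ratio 0.94, interval 0.76 to 1.12). The order of the 4 classes was thus the same in UMIs the rule had not used, but the contrast was 1.92-fold rather than absolute.

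Which cells count as Pax2 negative depended in part on the draw. Of the 1231, 831 had 0 Pax2 UMIs before thinning too. A leftover Pax2 UMI was found in 32.5% of the Pax2 negative cells and in 48.6% of the Pax2 high cells. A second random draw gave 435 Pax2 high cells, of which 273 were among the 438 (62.3% of the first set, 62.8% of the second), and put 46 of the 438 (10.5%) at 0. No cell type known to lack Pax2 was set aside in these data, so the share of these UMIs that comes from free RNA was not measured.

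Most genes stood at nearly the same level in both sets. Of 8322 genes that reached 10 CPM in at least 1 set, 7892 (94.8%) had a log2 ratio within 0.32 of equality, and the median log2 ratio of Pax2 high over Pax2 negative was 0.02. A gene was called when it was at least 1.5-fold higher or lower and its interval excluded equality. By this rule of size 26 genes (0.312%) were higher and 30 (0.36%) were lower in Pax2 high cells. At any size, the interval lay above equality for 904 genes (10.9%) and below it for 585 (7.03%), and 57.2% of all ratios were above 1. The called genes depend on the draw: the second random draw called 35 higher and 23 lower, sharing 13 and 12 genes with the first.

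**Figure D2:**
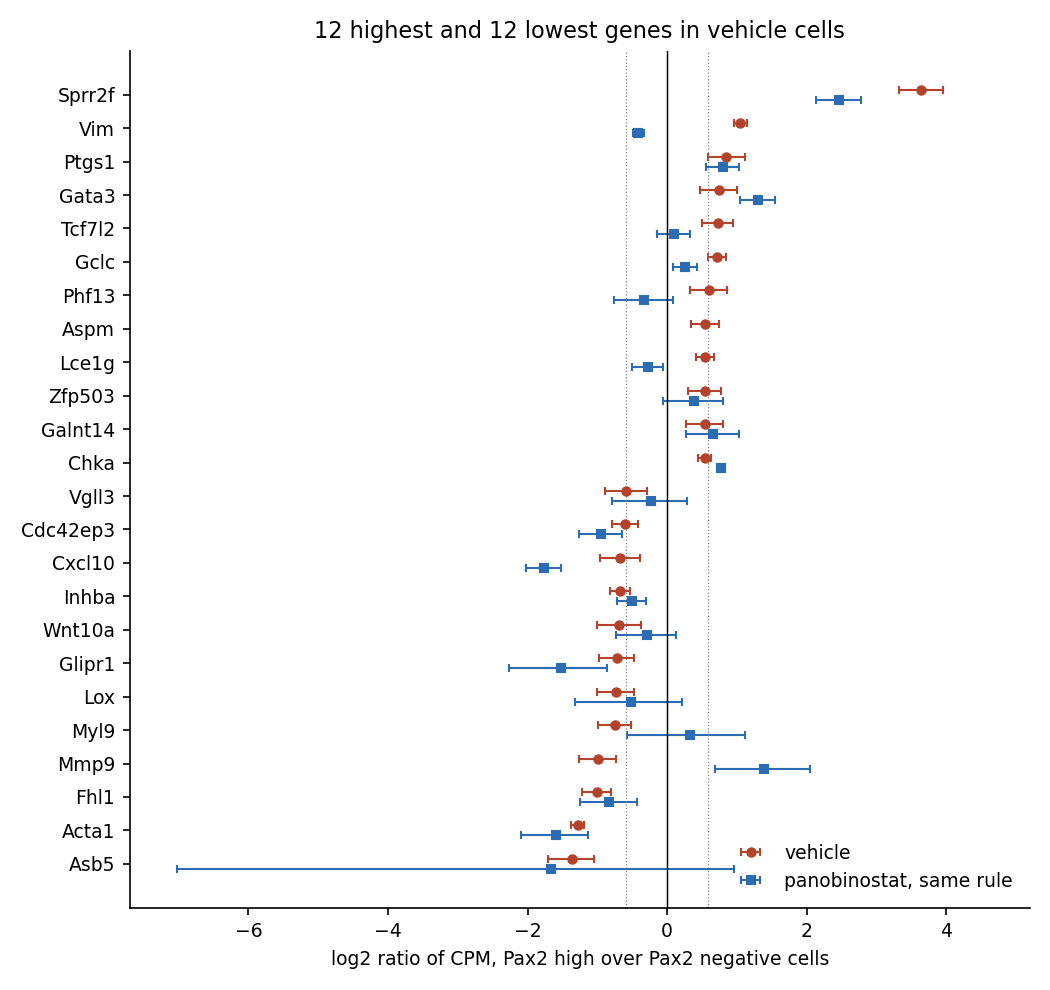
Log2 ratio of CPM, Pax2 high over Pax2 negative cells (x axis), with exact 95% intervals, for the 12 highest and 12 lowest genes at 20 CPM or more in vehicle cells (red) and under the same rule in the panobinostat library (blue). Dotted lines mark 1.5-fold. Acta1, Fhl1, Cxcl10, Gata3 and Ptgs1 lie on the same side in both. Vim, Mmp9 and Lce1g lie on opposite sides, as do Phf13 and Myl9, whose blue intervals include equality. Aspm has no blue point because no UMI was drawn from the Pax2 high cells there.

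Several genes known from muscle were among the lowest in Pax2 high cells. Acta1, the skeletal muscle alpha-actin, was at 146 CPM (138 to 155) in Pax2 high cells and 356 CPM (349 to 364) in Pax2 negative cells, a log2 ratio of -1.28 (-1.37 to -1.19). Fhl1, a LIM-domain protein of muscle, was at 27.6 against 55.5 CPM (log2 ratio -1.01). Myl9, a regulatory light chain of smooth muscle myosin, was at 22.3 against 37.5 CPM (-0.75), and Asb5, an ankyrin repeat protein of muscle, at 10.6 against 27.5 CPM (-1.37). In the leftover UMIs the log2 ratios were -1.15 for Acta1, -0.81 for Fhl1, -0.64 for Myl9 and -1.36 for Asb5. Those UMIs measure the same cells again, so they do not show whether the ratios hold with other cells chosen.

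Promoters of these 4 genes are shown because each holds a CArG box, the 10-letter element bound by serum response factor in many actin and muscle genes. The stretches are from RefSeq promoters on GRCm38.p6, written 5′ to 3′ along the gene and ending before the start site, with the match in capitals. They lie at chr8:123894784-123894903 (minus strand, match beginning at -73 from the start site), chrX:56779526-56779645 (plus strand, -102), chr2:156775248-156775367 (plus strand, -161) and chr8:54550081-54550184 (plus strand, -211).
Acta1: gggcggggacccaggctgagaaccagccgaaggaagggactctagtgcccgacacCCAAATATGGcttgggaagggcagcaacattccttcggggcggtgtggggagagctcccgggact
Fhl1: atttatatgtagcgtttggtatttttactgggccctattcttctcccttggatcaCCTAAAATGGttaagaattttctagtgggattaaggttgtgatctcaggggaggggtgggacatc
Myl9: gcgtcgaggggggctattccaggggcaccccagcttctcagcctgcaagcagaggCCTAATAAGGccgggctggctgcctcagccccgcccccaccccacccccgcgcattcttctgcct
Asb5: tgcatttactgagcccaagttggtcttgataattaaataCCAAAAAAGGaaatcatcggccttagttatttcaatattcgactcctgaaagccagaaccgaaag

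The box was searched for by name in the 250 bases before and 50 after each start site, where its pattern reads the same on both strands, and it was chosen after the values of these genes were seen. Among the lower genes 5 of 21 with a promoter in the table held a match (23.8%), the fifth being Dgkh, a diacylglycerol kinase at 7.58 against 12.5 CPM. Dgkh passed the floor in the Pax2 negative cells alone, and in the leftover UMIs its log2 ratio was -0.02 (-0.39 to 0.34). Among the higher genes 1 of 21 did (Lgr4, 4.76%), and among all genes past the floor 115 of 6627 did (1.74%). Over all 32851 promoters 535 (1.63%) held one. A match is a description of letters, not of a bound site.

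Acta1 RNA was concentrated in few cells. It was detected in 26.9% of Pax2 high and 34.1% of Pax2 negative cells, with a median of 0 UMIs in both sets and a highest count of 206 and 338 UMIs in 1 cell. Without the 3 cells with most UMIs in each set its log2 ratio was -1.76, that of Fhl1 -1.14 and that of Asb5 -1.47. That step left out 3 of 438 Pax2 high but 3 of 1231 Pax2 negative cells, which by itself lowers the ratio of genes held by few cells. It therefore cannot show how far the ratios depend on such cells. Under the second random draw Acta1 was at -0.61, Fhl1 at -0.62, Asb5 at -0.85 and Myl9 at -0.58, and Myl9 was then just under the 1.5-fold limit.

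Of 15 contractile cytoskeleton genes past the floor, 14 were at ratios below 1 and 11 had intervals below equality. The list's median log2 ratio was -0.12, against 0.02 for all genes, and only Acta1 and Myl9 were called. Acta2, the smooth muscle actin of myofibroblasts, was at 482 against 595 CPM (-0.30), and Cnn1, the actin-binding calponin, at 21.5 against 32.2 CPM (-0.58). The median was between -0.25 and -0.09 under every alternative setting tried, the panobinostat library included. A small cluster of 14 cells led by Myl9, Cnn1 and Acta2 held 13 Pax2 negative and 0 Pax2 high cells. It also held 11.6% of all Myl9 UMIs. Without this cluster the list's median was -0.11. Myl9 was then at -0.46 and no longer called, while Acta1 was at -1.12 and still called.

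Several genes of secreted and inflammatory proteins were also lower. Inhba, which encodes an activin subunit, was at 63.5 CPM (58.1 to 69.2) in Pax2 high and 101 CPM (97.1 to 105) in Pax2 negative cells, a log2 ratio of -0.67. Cxcl10, an interferon-induced chemokine, was at 15.4 against 24.5 CPM (-0.67), and was no longer called under the second draw (-0.39) or at 10000 UMIs (-0.28). Icam1, a leukocyte adhesion receptor, was at 5.38 against 11.7 CPM (-1.12). Of 13 targets of NF-kB and cytokines past the floor, 11 had ratios below 1 and 8 had intervals below equality, with a median log2 ratio of -0.25. Icam1 alone among them was called, and it passed the floor in the Pax2 negative cells alone. In panobinostat cells Icam1 was at 29.2 against 28.6 CPM (0.03). In the panobinostat library 11 genes of the list passed the floor, of which 0 were called higher and 4 lower, with a median of -0.10. Over the same 13 genes as in vehicle cells, floor aside, the median there was 0.03.

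The values of other lower genes also depended on the draw. Lox, the collagen cross-linking enzyme, was at 17.6 against 29.3 CPM (-0.73), Wnt10a, a Wnt ligand, at 13.0 against 20.8 CPM (-0.68), and Glipr1, a secreted CAP-family protein, at 19.5 against 32.1 CPM (-0.72). Under the second draw these came to -0.30, -0.48 and -0.22 and were no longer called. Cdc42ep3, an effector of the small GTPase Cdc42, was at 35.8 against 54.2 CPM (-0.60), and Vgll3, a cofactor of TEAD transcription factors, at 14.3 against 21.5 CPM (-0.59); under the second draw they came to -0.42 and -0.33 and lost their calls. Mmp9, a gelatinase, was at 17.9 against 35.6 CPM (-0.99), with 48 of its 146 UMIs in 1 Pax2 high cell. Without the 3 highest cells in each set its log2 ratio was -2.09, a step that takes a larger share of the smaller Pax2 high set.

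On the higher side, Vim was the most abundant of the called genes. Vim encodes vimentin, the intermediate filament of mesenchymal and dedifferentiated epithelial cells. It stood at 192 CPM (182 to 202) in Pax2 high and 92.5 CPM (88.6 to 96.5) in Pax2 negative cells, a log2 ratio of 1.05 (0.96 to 1.15). It was detected in 17.6% of the Pax2 high and 14.8% of the Pax2 negative cells, a minority in both sets. In the leftover UMIs of the same cells its log2 ratio was 0.94, and under the second draw 1.00. Without the 3 highest cells in each set it was 1.04.

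Of 19 mesenchymal and matrix genes past the floor Vim was not typical. The list's median log2 ratio was -0.07, with 6 ratios above 1. Vim and Zeb2, a repressor of epithelial genes at 10.6 against 6.75 CPM, were called higher, and Lox was called lower. Zeb2 passed the floor in the Pax2 high cells alone.

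Ptgs1, the constitutive cyclooxygenase of prostaglandin synthesis, was at 24.6 CPM (21.3 to 28.2) in Pax2 high and 13.6 CPM (12.2 to 15.2) in Pax2 negative cells, a log2 ratio of 0.85. Ptges, a prostaglandin E synthase of a later step, was at 15.3 against 10.1 CPM (0.60) and was singled out after its value was seen. Ptgs1 was detected in 27.4% of Pax2 high and 17.5% of Pax2 negative cells, and its log2 ratio was 0.80 under the second draw.

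Gata3 was the called gene among the transcription factors of kidney development. Gata3, which acts with Pax2 in the nephric duct, stood at 22.5 CPM (19.4 to 26.0) in Pax2 high and 13.5 CPM in Pax2 negative cells, a log2 ratio of 0.74 (0.47 to 1.01). Its log2 ratio was 0.70 in the leftover UMIs of the same cells and 0.67 under the second draw. Foxc1, a forkhead factor of early nephrogenesis, was at 35.4 against 25.9 CPM (0.45), under the 1.5-fold limit. Of 20 such factors past the floor 16 had ratios above 1 and 5 had intervals above equality, with a median log2 ratio of 0.15. That median was between 0.08 and 0.17 under every alternative setting tried.

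Pax8, the close relative of Pax2, did not follow it: 125 CPM in Pax2 high and 116 CPM in Pax2 negative cells, a log2 ratio of 0.10 (-0.00 to 0.21). The 11 genes of ureteric bud, Ret and Wnt signalling past the floor were all above 1, with a median of 0.14 and none called. Npnt, the integrin ligand nephronectin of the ureteric bud, was at 116 against 88.2 CPM (0.40). In the leftover UMIs 7 of the 11 were above 1 and their median was 0.02.

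Further higher genes had varied roles. Tcf7l2, a transcription factor of the Wnt pathway, was at 33.2 against 20.0 CPM (0.73), and Gclc, the catalytic subunit of glutathione synthesis, at 91.7 against 55.8 CPM (0.72). Dhrs3, a reductase of retinaldehyde, was at 18.6 against 10.4 CPM (0.84), Aqp1, a water channel of the proximal tubule, at 15.4 against 7.70 CPM (1.00), and Pdpn, the podocyte and parietal cell glycoprotein podoplanin, at 17.6 against 9.14 CPM (0.95). Pdpn was singled out after its value was seen, and both Pdpn and Aqp1 passed the floor in the Pax2 high cells alone. Phf13, a chromatin reader, was at 22.4 against 14.8 CPM (0.60). Under the 1.5-fold limit, and so not called, were Chka, a choline kinase, at 189 against 130 CPM (0.54), Galnt14, a glycosyltransferase, at 21.5 against 14.8 CPM (0.54), and Zfp503, a zinc finger protein, at 27.4 against 18.8 CPM (0.54). Of the 7 genes called higher at 20 CPM or more, the second draw called Sprr2f, Vim, Ptgs1, Gata3 and Gclc again but not Tcf7l2 (0.53) or Phf13 (0.27).

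The largest ratio of all rested on few cells. Sprr2f, a small proline-rich protein of cornified and injured epithelia, was at 58.5 against 4.70 CPM, a log2 ratio of 3.64. It was detected in 5.25% of the Pax2 high cells (23 cells) and 1.79% of the Pax2 negative cells (22 cells), and 1 Pax2 high cell held 165 of the 478 UMIs. Without the 3 highest cells in each set the log2 ratio was 2.26. Lce1g, a late cornified envelope gene, was at 96.8 against 66.4 CPM (0.54), with 429 of its 791 UMIs in 1 Pax2 high cell. It was at -0.77 without the 3 highest cells in each set. For both genes that step takes a larger share of the smaller Pax2 high set, which by itself lowers the ratio.

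**Figure D3:**
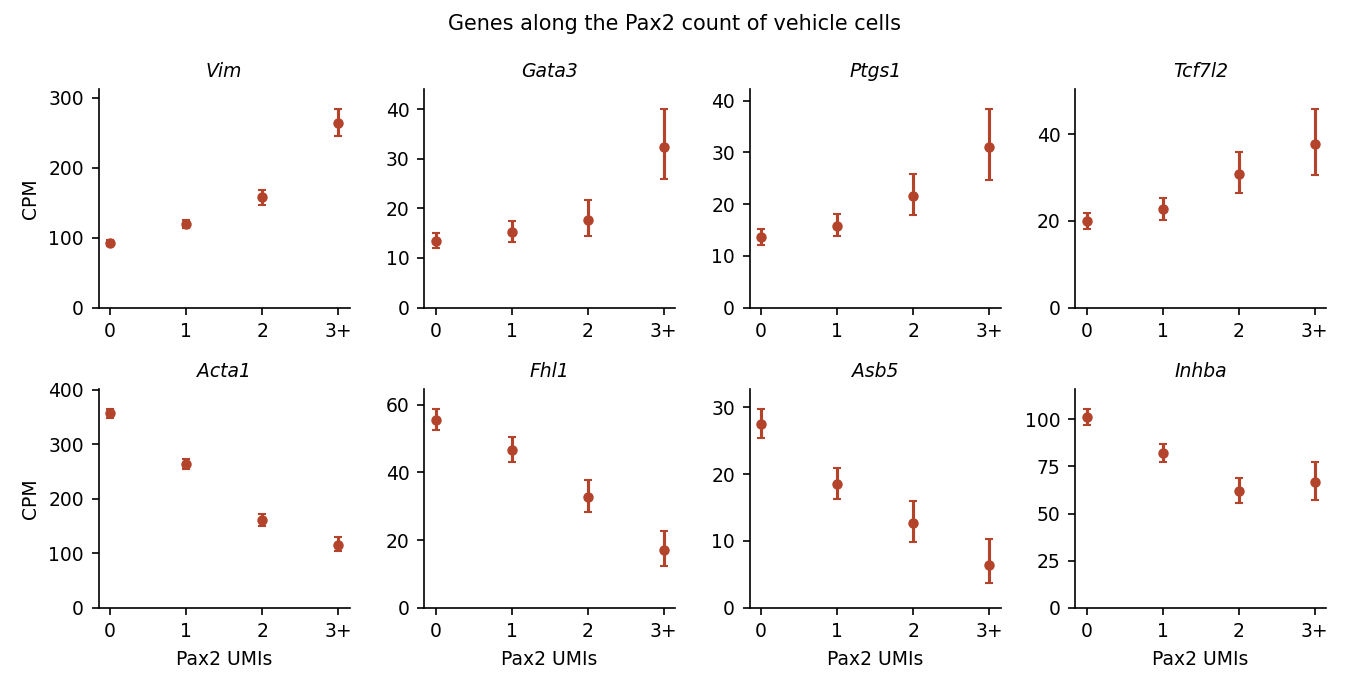
CPM (y axes, from 0, exact Poisson 95% intervals) of 8 genes in vehicle cells with 0, 1, 2 and 3 or more thinned Pax2 UMIs (x axes). Vim, Gata3, Ptgs1 and Tcf7l2 stand higher in each class with more Pax2, and Acta1, Fhl1 and Asb5 stand lower, with the 1 UMI class between the compared sets.

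The cells with 1 Pax2 UMI, which entered neither set, lay between them for most of the leading genes. They lay outside for Lox (29.3 CPM at 0, 31.0 at 1 and 17.6 in Pax2 high cells), Mmp9 (35.6, 45.2 and 17.9 CPM) and Lce1g (66.4, 57.0 and 96.8 CPM). Vim was at 92.5 CPM with 0 Pax2 UMIs, 119 CPM with 1, 157 CPM with 2 and 264 CPM with 3 or more. Acta1 was at 356, 264, 161 and 116 CPM in the same order, and Fhl1 at 55.5, 46.6, 32.8 and 17.0 CPM. Gata3 was at 13.5, 15.2, 17.7 and 32.5 CPM. These 4 genes thus stood in the order of the Pax2 count, while Inhba (101, 82.2, 61.9 and 66.8 CPM) and Gclc (55.8, 59.95, 94.1 and 86.8 CPM) were level between the 2 upper classes. Sprr2f, the gene with the largest ratio, did not follow that order, at 4.70, 14.9, 8.69 and 162 CPM.

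**Figure D4:**
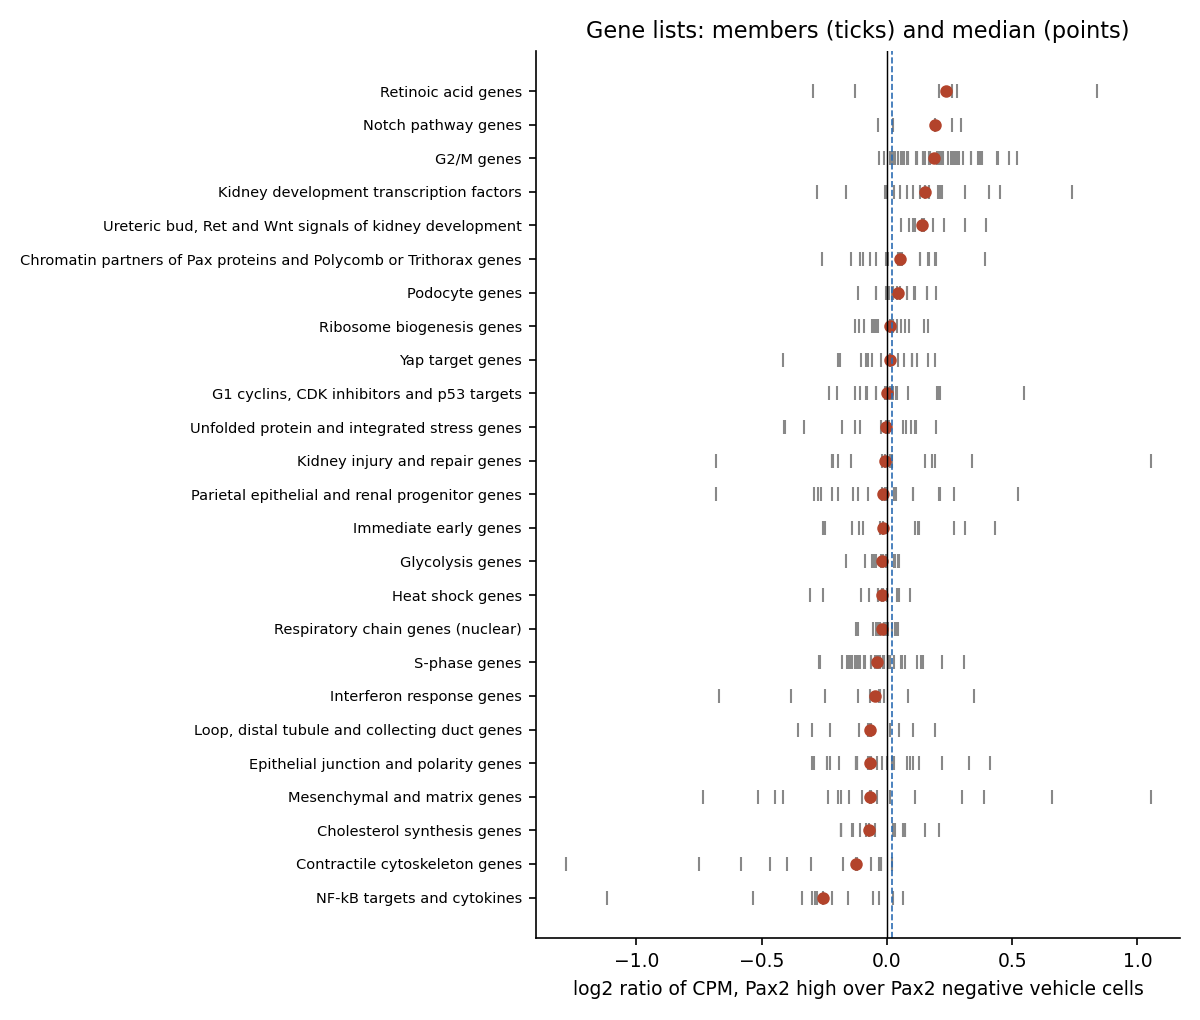
Log2 ratio of CPM, Pax2 high over Pax2 negative vehicle cells (x axis), for the members of each gene list past the floor (grey ticks) and their median (red points), for lists with 5 or more such members. The dashed line is the median of all genes, 0.02. The medians run from -0.25 for NF-kB targets to 0.24 for retinoic acid genes.

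Lists of other kidney cell programmes held 0 or 1 called genes each. Over all genes past the floor 0.312% were called higher and 0.36% lower, so such counts say little for lists this short. Of 20 parietal epithelial and renal progenitor genes past the floor, 0 were called higher and 1 lower, 4 had intervals above equality and 9 below, and the median was -0.01. The lower one was Vcam1, an adhesion molecule that is also a cytokine target, at 9.79 against 15.7 CPM (-0.68). Vcam1 passed the floor in the Pax2 negative cells alone. Of 16 podocyte genes 0 were called in either direction (median 0.05, 12 ratios above 1). Pdpn, called higher, is on neither the parietal nor the podocyte list. Of 27 epithelial junction genes 0 were called, but 13 had intervals below equality and 2 above (median -0.07). Of 3 proximal tubule genes past the floor 1, Aqp1, was called higher, and it passed the floor in the Pax2 high cells alone. Krt8, a keratin of simple epithelia, was at 3939 against 4730 CPM (-0.26). Of 19 chromatin partners of Pax proteins, Polycomb and Trithorax genes 0 were called (median 0.05). The nuclear transcripts Malat1 and Neat1 were higher by less than 1.5-fold: Malat1 was at 8867 against 7080 CPM (0.32) and Neat1 at 511 against 429 CPM (0.25).

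Marker lists of leukocytes, endothelium and mesangium were low in both sets, while genes shared with myofibroblasts were abundant. Of 8 macrophage and leukocyte genes in the matrix 0 passed the floor, and the list summed to 15.7 CPM in Pax2 high and 14.5 CPM in Pax2 negative cells. Of the endothelial markers 2 passed the floor, and 1 of them, Emcn, which encodes endomucin, did so through 327 UMIs in 4 of the 1231 Pax2 negative cells, 160 of them in 1 cell. No Emcn UMI was drawn from the 438 Pax2 high cells, a count of 0 that limits cells with such a UMI to 0.685% (3 counts of 438) and says less of cells that hold the transcript. The call of Emcn as lower describes those 4 cells. Of the mesangial and pericyte markers 3 passed the floor, summing with the rest of their list to 61.5 CPM in Pax2 high and 50.8 CPM in Pax2 negative cells, and the one called is Gata3, which is also on the list of kidney development factors. Contractile genes summed to 10006 against 11039 CPM and mesenchymal and matrix genes to 4283 against 4616 CPM, and the part of any other cell type in these sums was not tested.

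The share of cycling cells was alike in both sets, but its division between phases was not. Phases were called from the S and G2/M gene lists in cells of both libraries scored together. S or G2/M was called for 66.0% (61.3 to 70.4) of Pax2 high and 66.1% (63.4 to 68.8) of Pax2 negative cells. G2/M took 42.5% (37.8 to 47.2) of Pax2 high cells and 34.3% (31.6 to 37.0) of Pax2 negative cells, and S took 23.5% (19.6 to 27.8) and 31.8% (29.2 to 34.5). Pax2 high cells were thus 8.18 percentage points higher in G2/M and 8.33 points lower in S. Thinned to 10000 UMIs, which leaves 219 Pax2 high cells, the G2/M difference was 1.97 points and the S difference -2.25 points.

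**Figure D5:**
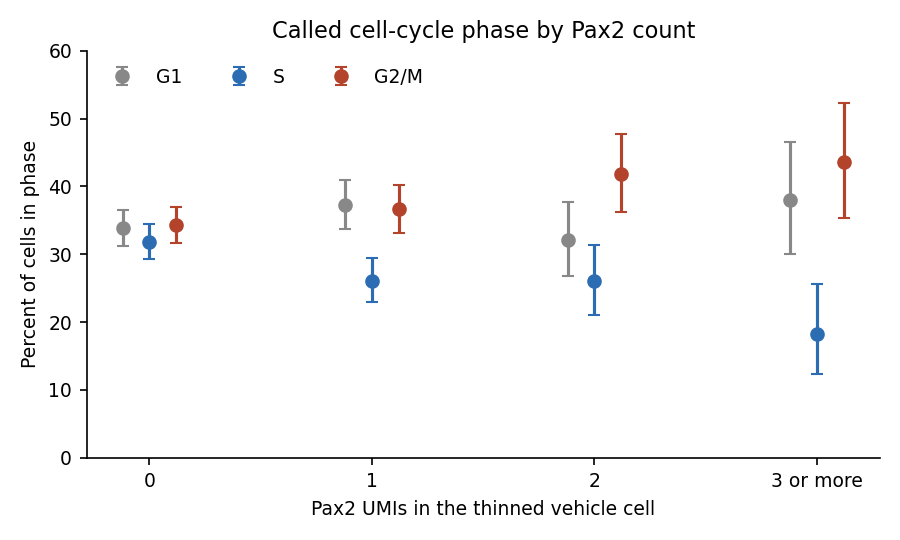
Percent of vehicle cells called G1 (grey), S (blue) or G2/M (red) on the y axis, by thinned Pax2 UMIs on the x axis, with exact binomial 95% intervals. G2/M goes from 34.3% at 0 UMIs to 43.7% at 3 or more, and S from 31.8% to 18.3%.

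Along the Pax2 count, G2/M was called in 34.3% of cells with 0 UMIs, 36.6% with 1, 41.9% with 2 and 43.7% with 3 or more. S was called in 31.8%, 26.1%, 26.0% and 18.3%, and G1 showed no such order. Read the other way, Pax2 stood at 33.4 CPM (30.3 to 36.7) in S-phase cells, 41.1 CPM in G1 cells and 44.2 CPM (41.0 to 47.5) in G2/M cells. In the leftover UMIs the order was the same, at 36.0 CPM in S and 39.8 CPM in G1 cells and highest in G2/M cells. Median depth before thinning moved with it, at 27497 UMIs in S, 29383 in G1 and 33690.5 in G2/M cells, and its part in the result was not tested.

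The genes of mitosis were higher by small amounts. Of 52 G2/M genes past the floor 50 had ratios above 1 and 33 had intervals above equality, with a median log2 ratio of 0.19 and none called. The list took a median of 107 UMIs per Pax2 high cell and 91 per Pax2 negative cell. Cenpf, a kinetochore protein, was at 178 against 124 CPM (0.52), and Aspm, a spindle pole protein, at 37.4 against 25.6 CPM (0.55). Mki67, the proliferation marker, was at 160 against 133 CPM (0.27), Ccnb1, the mitotic cyclin, at 92.1 against 76.5 CPM (0.27), and Top2a, which untangles chromosomes, at 305 against 254 CPM (0.26). Ccna2, the cyclin of S phase and G2, was at 74.4 against 68.8 CPM with an interval that includes equality (0.11, -0.02 to 0.25). In the leftover UMIs the median of the list was 0.13, and over cells called G1 it was -0.01. Cells were called G1 for low scores on this list and the S list, so the G1 value was partly set by that choice.

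S-phase genes and regulators of G1 were near equality for the most part. Of 41 S-phase genes past the floor 14 had ratios above 1, with a median of -0.04. Over cells called G1, which were chosen in part by low scores on this list, the 21 that passed the floor there had a median of 0.0047. Pcna, the replication clamp, was at 49.4 against 54.4 CPM (-0.14, -0.30 to 0.02). Cdkn1a, the p53-induced inhibitor of cyclin-dependent kinases, was at 501 against 516 CPM (-0.04), and Ccnd1, the cyclin of the G1 decision, at 1977 against 1722 CPM (0.20, 0.17 to 0.22). Cdkn2d, an inhibitor of the Ccnd1 kinases, was at 19.1 against 13.1 CPM (0.55).

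With phases matched, the calls were nearly the same. With the Pax2 negative cells weighted to the phases of the Pax2 high cells, 26 genes were higher and 29 lower, 22 and 29 of them shared with the unweighted calls. Among cells called G1, Acta1 was at 241 against 601 CPM, Fhl1 at 28.8 against 79.7 CPM, Vim at 130 against 73.6 CPM and Gata3 at 20.9 against 11.4 CPM. These 4 genes had the same direction in S and in G2/M cells, with log2 ratios of -1.55 and -0.90 for Acta1, -0.62 and -0.71 for Fhl1, 0.52 and 1.52 for Vim, and 0.97 and 0.44 for Gata3. Others did not hold in each phase: Asb5 was at 15.3 against 11.8 CPM in G2/M cells (0.37, -0.14 to 0.87), Mmp9 at 0.03 there, Myl9 at -0.01 in S cells and Wnt10a at -0.10 in G1 cells.

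Pax2 high cells were spread over the clusters of the vehicle cells but not evenly. Clusters were made without Pax2 and are numbered by size. Of the 343 cells of cluster 5, led by Vim, Xirp2, Aqp1 and Col4a1, 26.5% (21.9 to 31.5) were Pax2 high. Of the 579 cells of cluster 2, led by Tgm2, Lcn2, Fhl1 and Lox, 13.8% (11.1 to 16.9) were. In the leftover UMIs Pax2 was at 53.3 CPM in cluster 5 and 33.2 CPM in cluster 2, in the same order. Cluster 1 had 15.6% Pax2 high cells, cluster 3, led by Depdc7 and Gata3, 19.5%, and cluster 4, led by Clu and Ltc4s, 21.0%. S or G2/M was called for 99.8% of the cells of cluster 1, 100% of cluster 3 and 84.3% of cluster 5, against 18.1% of cluster 2 and 22.8% of cluster 4, so mostly cycling clusters had both low and high shares of Pax2 high cells.

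With clusters matched, fewer of the higher genes were called. With the Pax2 negative cells weighted to the clusters of the Pax2 high cells, 8 genes were called higher, all 8 among the 26, and 26 lower, 20 of them among the 30. Vim was then at a log2 ratio of 0.52, Gata3 at 0.58 and Myl9 at -0.54, all under the 1.5-fold limit. Acta1 was at -1.02, Fhl1 at -0.84, Asb5 at -1.29 and Ptgs1 at 0.60. Cluster 5 held 77.3% of all Vim UMIs, and within it Vim was at 803 CPM in Pax2 high and 547 CPM in Pax2 negative cells. Gata3 was at 65.4 against 42.5 CPM within cluster 3 and at 44.4 against 32.9 CPM within cluster 4. Acta1 was lower in Pax2 high cells in each of clusters 1 to 5, most widely in cluster 4, at 105 against 455 CPM.

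The same rule applied to the panobinostat library gave a second set of cells that shared no cell or library with the first. Of its 2221 thinned cells 198 were Pax2 high and 1437 Pax2 negative, and leftover Pax2 was at 47.7 against 19.4 CPM. There 163 genes (1.93%) were higher and 105 (1.24%) lower among 8435 past the floor, from fewer Pax2 high cells. At any size the interval lay above equality for 1087 (12.9%) and below it for 820 (9.72%), and 56.5% of ratios were above 1. Of the 26 higher vehicle genes 6 were called higher again (Sprr2f, Ptgs1, Gata3, Dhrs3, Ptges and Ank), and of the 30 lower ones 7 were called lower again (Acta1, Fhl1, Cxcl10, Glipr1, Cdc42ep3, Sbsn and AI593442). Of the 26 and the 30, 18 and 15 passed the floor there.

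The genes of the 26 with the same sign there numbered 19, and those of the 30 numbered 21. For some of those called again, and so alike in direction by choice, the values were as follows. Acta1 was at 10.6 CPM in Pax2 high and 31.9 CPM in Pax2 negative cells (log2 ratio -1.59), Fhl1 at 15.2 against 26.9 CPM (-0.83) and Cxcl10 at 37.1 against 126 CPM (-1.77). Gata3 was at 47.4 against 19.2 CPM (1.30), Ptgs1 at 48.2 against 27.7 CPM (0.80) and Dhrs3 at 17.9 against 7.27 CPM (1.30). Of the genes not called again, Tcf7l2 had a log2 ratio of 0.10, Phf13 of -0.33 and Myl9 of 0.32. Vim went the other way, at 406 against 541 CPM (-0.41, -0.49 to -0.34). The difference between the libraries was not tested, since each treatment is 1 library.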

How the data were processed

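The authors deposited a matrix of whole-number UMI counts, not normalized, with 19394 genes in 5135 cells, and gave the library of each cell by a mark on its barcode, read here as vehicle or panobinostat. Cell Ranger 3.0.1 and mm10 are named per the submitters' processing notes (the counting annotation: not given in the sources used here). No columns of other samples were used (0).

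Cells were thinned with numpy 2.4.6 to the 10th percentile of cell totals, 18663 UMIs. UMIs were summed over the Pax2 high and the Pax2 negative cells and scaled to 1000000 (CPM); log2 ratios have exact conditional binomial intervals, CPM values exact Poisson intervals and shares exact Clopper-Pearson intervals, all at 95%. A gene was called at 1.5-fold or more with an interval excluding equality and 10 CPM in at least 1 set. Genes under the floor in 1 set could be tested only because they were high in the other, which tilts their calls. The calling rule was tested on simulated counts with counting noise only, which cannot show how calls depend on variation between cells. Genes are named by a rule: the 12 highest and 12 lowest at 20 CPM or more with an interval excluding equality, without mitochondrial, ribosomal protein and unnamed genes, up to 3 of each of 30 gene lists, and a fixed few; genes outside it are marked in the text or stand in counts. Phases were scored and clusters (2000 variable genes, 30 components, 15 neighbours, resolution 0.5) made with scanpy 1.11.5 and leidenalg 0.10.2. The doublet caller marked 1 of 2854 vehicle cells (0.035%), too few to be taken as working, so doublets were in effect not removed.

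The cells, gene lists and settings were chosen with earlier results of these data known. Alternatives changed the draw, depth, threshold, floor, scaling (TMM factors of edgeR 4.0.16, size factors of DESeq2 1.42.0, used for scaling only), cells and weighting; 3 were added after seeing the data. Coordinates are GRCm38, from GENCODE M21 and RefSeq. A gene of 1 list is not reported here.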

Additional observations from a re-analysis of the deposited data

Results flagged for a closer look

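For 2 named genes called in vehicle cells, the interval of the ratio of Pax2 high over Pax2 negative cells lay on one side of equality in vehicle cells and on the other in panobinostat cells. Vim had a log2 ratio of 1.05 in vehicle cells and -0.41 in panobinostat cells, where it was at 406 against 541 CPM. Mmp9 had a log2 ratio of -0.99 in vehicle cells and 1.39 in panobinostat cells, where it was at 7.04 against 2.68 CPM, under the floor of 10 CPM in both sets and from 26 and 72 UMIs. Neither difference between the libraries was tested. Among the called genes not named by rule, Ivl, which encodes involucrin, did the same, with a log2 ratio of -0.78 in vehicle cells and 1.40 in panobinostat cells. In vehicle cells Ivl was at 7.58 against 13.1 CPM, past the floor in the Pax2 negative cells alone. Its log2 ratio in the leftover UMIs was -0.26 (-0.67 to 0.12). The panobinostat value, 10.6 against 3.99 CPM, came from 39 and 107 UMIs. Lce1g, a named gene under the 1.5-fold limit in vehicle cells (0.54), was at -0.28 in panobinostat cells.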

How the results depend on the processing

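No paired analysis was possible because each treatment is 1 library and the labels carry no replicate numbers. Against 26 genes higher and 30 lower, the counts were 153 and 68 with cells thinned to 10000 UMIs, 191 and 103 with Pax2 high set at 3 or more UMIs, 146 and 113 in cells called G1, and 163 and 105 in panobinostat cells. They were 191 and 140 at a floor of 1 CPM, 3 and 4 at 50 CPM, 259 and 124 at a log2 threshold of 0.32, and 3 and 6 at 2-fold. With the reference at 0 Pax2 UMIs before thinning 48 were higher, and with cluster weights 8. By the mean over cells of log2(CPM + 10) 2 were higher and 0 lower, sharing 0 genes with the 26 or the 30. Without the 3 cells with most UMIs of each gene, an alternative added after seeing the data like leaving out the smallest cluster or the doublet, 11 were higher and 46 lower. Leaving out 3 cells takes a larger share of the smaller Pax2 high set, which tilts ratios downward. TMM and DESeq2 scaling each gave 19 and 33. In the leftover UMIs 32 and 36 genes were called, 12 and 15 of them among the 26 and the 30. At 10000 UMIs 12 and 8 of the 26 and the 30 were called again, from 8439 genes past the floor. At 3 or more Pax2 UMIs 23 and 24 were, from 8448 genes, and in cells called G1 16 and 24, from 8239 genes.

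The G2/M difference of 8.18 points was 1.97 at 10000 UMIs, and the S difference of -8.33 points was -2.25 there and -13.5 at 3 or more UMIs. The leftover Pax2 log2 ratio was 1.34 at 3 or more UMIs. In panobinostat cells the sign turned for 7 of the 26 higher and 9 of the 30 lower genes, among them Vim (-0.41), Zeb2 (-0.19), Phf13 (-0.33), Myl9 (0.32), Mmp9 (1.39), Icam1 (0.031), Pdpn (-0.25) and Dgkh (0.35). Lce1g turned at 10000 UMIs (-0.65) and without its 3 highest cells (-0.77). The cause was not tested in any of these.

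With 1 library per treatment none of these values carries an error between cultures or animals. At a mean of 0.746 Pax2 UMIs per cell the Pax2 high and Pax2 negative sets overlapped in leftover Pax2. A gene at the floor of 10 CPM had 81.7 UMIs in Pax2 high cells.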
